A study of Rattus norvegicus with 4 samples.

Results

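Ptgs2, Ptgs1, Ccl2, Cxcl1 and Il6, the prostaglandin synthases together with serum-induced chemokines and a cytokine, were followed across 4 Affymetrix RG-U34A arrays of Rat1 fibroblasts. These genes were chosen on the results of the same arrays, namely the serum folds of Ptgs2 and the 0 min ratio of Ccl2, so that their folds are given as a description and no test was made. A probe set was a member if 1 of these symbols stood alone in the annotation table of the platform, and 7 of the 8799 probe sets met this rule: 2 each for Ptgs2, Ccl2 and Il6, and 1 for Ptgs1. They measure 4 of the 4736 genes to which that table gives a probe set with a single symbol. No probe set matched Cxcl1 by this rule, so that Cxcl1 has no value here.

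Rat1 cells, an immortalized fibroblast line, carried either a retrovirus for Omomer (Rat1-Omomer) or the empty control virus (Rat1-control). Omomer is Omomyc, a dominant interfering form of the Myc dimerization domain, joined to a tamoxifen-responsive part of the estrogen receptor, and 4-OHT, the active form of tamoxifen, was given to both lines. The 4 conditions, with 1 array each, were Rat1-Omomer cells at 90 and 0 min and Rat1-control cells at 90 and 0 min, counted from the change of 0.1% serum to 10% serum after 48 h of starvation. In the labels 4-OHT was present during starvation, whereas in the methods it was added only shortly before serum, so that its duration is not settled. The transfection label contradicts title and source for 2 samples (Rat1-Omomer at 0 min; Rat1-control at 90 min), and the titles were followed. No replicate array exists, so that no difference can be compared with the spread between cultures.

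Prostaglandin-endoperoxide synthases, or cyclooxygenases, convert arachidonic acid into the common precursor of prostaglandins and thromboxanes. Ptgs1 is the form that many tissues express steadily, whereas Ptgs2 is an immediate early gene of fibroblasts that serum, growth factors and inflammatory signals induce. Ccl2 attracts monocytes and Cxcl1 attracts neutrophils, and both were among the first growth factor-induced genes described in mouse fibroblasts. Il6 encodes interleukin 6, a cytokine of the acute phase response that fibroblasts can secrete.

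The regions upstream of the genes for both synthases are shown because both enzymes catalyse the same reaction while their signals in these arrays differed. The 250 bases before the annotated start were taken from RefSeq (build GRCr8), where 4 of the 5 genes had an entry; Ccl2, a gene of chromosome 10, had none. Capitals mark matches to any of 6 motifs searched on both strands: the E-box CACGTG, which Myc with Max binds, the cyclic AMP response element TGACGTCA, the AP-1 site TGANTCA, the TATA box TATAAA, and the NF-kappaB and CArG boxes. The Ptgs2 region lies at chr13:64713813-64714062 on the + strand and the Ptgs1 region at chr3:39981169-39981418 on the + strand.
Ptgs2: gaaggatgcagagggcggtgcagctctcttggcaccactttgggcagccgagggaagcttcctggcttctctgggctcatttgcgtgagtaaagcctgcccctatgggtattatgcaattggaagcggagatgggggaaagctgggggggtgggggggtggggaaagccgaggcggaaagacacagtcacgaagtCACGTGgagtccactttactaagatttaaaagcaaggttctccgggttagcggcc
Ptgs1: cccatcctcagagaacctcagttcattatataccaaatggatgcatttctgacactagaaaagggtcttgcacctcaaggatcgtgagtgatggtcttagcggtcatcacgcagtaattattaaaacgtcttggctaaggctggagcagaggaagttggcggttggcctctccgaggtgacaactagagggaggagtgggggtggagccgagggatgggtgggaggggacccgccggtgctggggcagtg
The Ptgs2 region holds 1 match, an E-box at 55 to 50 bases before the start, and the Ptgs1 region holds none of the 6 motifs. An E-box of these letters occurs in 5.59% of the 33469 regions of the same length in the table. Upstream of Il6, a cyclic AMP response element lies 162 to 155 bases and an NF-kappaB match 68 to 59 bases before the start, motifs found in 1.59% and 3.54% of all regions. Upstream of Cxcl1, NF-kappaB matches on both strands overlap, at 84 to 75 and 83 to 74 bases before the start. The AP-1 site, the TATA box and the CArG box, with no match in the 4 regions, occur in 6.34%, 12.9% and 1.50% of all regions. These matches describe letters only, and binding of any factor was not measured in these arrays.

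**Figure D1:**
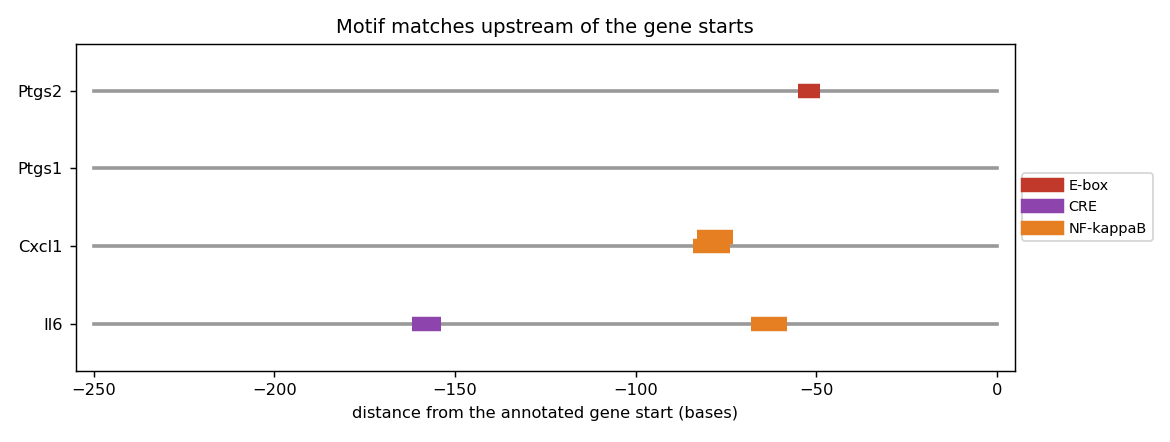
Motif matches in the 250 bases upstream of 4 genes, with distance from the annotated start in bases on the x axis; a match drawn above the line is on the opposite strand. The Ptgs2 region carries the E-box at 55 to 50 bases before the start, Ptgs1 carries no match, and Cxcl1 and Il6 carry NF-kappaB matches.

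The values are average differences computed by the authors with MAS 4, which average the excess of the perfect match probes over their mismatch partners on a linear scale, so that a value is below 0 where the mismatch probes are brighter. A noise floor of 1048 was used, 2 times an SD estimated from values below 0. This estimate treats those values as random, although 205 probe sets, none of them a member, lay further below 0 than the floor lies above it on all 4 arrays. A value under the floor was set to it before a ratio was taken, and a difference of at least 3-fold, the threshold of the study's methods, is counted as past 3-fold. Of the 7 member probe sets, 5 lay above the floor on all 4 arrays and 2, those of Il6, under it on all 4. The Rat1-Omomer 90 min array had a wider range than the others, with a 99th percentile of 72057 against 43961 to 54800 on the other 3, and 3365 probe sets above the floor against 3495 to 3738. The fibroblast origin of the RNA was checked by 25 probe sets of 10 marker genes, of which between 21 and 23 lay above the floor on each array, among them Col1a1, Vim and S100a4. On the Rat1-Omomer 90 min array 2 of these fibroblast probe sets were past 3-fold lower, both against the same cells at 0 min and against Rat1-control cells at 90 min. Col1a2, a chain of type I collagen, gave 14174 at 90 min and 50743 at 0 min in Rat1-Omomer cells, and 55641 at 90 min and 52387 at 0 min in Rat1-control cells. Sparc, a matrix protein, gave by rc_AA891204_s_at 1538 at 90 min and 14279 at 0 min in Rat1-Omomer cells, and 8233 at 90 min and 11459 at 0 min in Rat1-control cells. The probe sets of Sparc disagree, since rc_AA892248_at gave 64750 at 90 min and 35878 at 0 min in Rat1-Omomer cells. The names of both lower probe sets, rc_AA875531_s_at of Col1a2 and rc_AA891204_s_at of Sparc, begin with rc_AA. So do those of rc_AA892248_at and of rc_AA874848_s_at of Thy1, which were not lower on the Rat1-Omomer 90 min array. Whether this kind of probe set had a part in the lower values was not tested. The part of such differences on the Rat1-Omomer 90 min array in the folds of Ptgs2 and Ccl2 was not tested. No epithelial marker probe set (of 10) and only Flt1 of 6 endothelial ones was above the floor on any array.

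Ptgs2 was higher after serum in both cell lines by both of its probe sets, and by more in Rat1-Omomer cells. By probe set L25925_s_at its signal in Rat1-Omomer cells was 61996 at 90 min and 4324 at 0 min, and in Rat1-control cells it was 14283 at 90 min and 4835 at 0 min. The array of serum-treated Rat1-Omomer cells thus stood far above the other 3, and both 0 min arrays were close to each other. By probe set S67722_s_at the signal was 67202 at 90 min and 9775 at 0 min in Rat1-Omomer cells, and 38750 at 90 min and 16717 at 0 min in Rat1-control cells. Here the order of the arrays was the same at 90 min, while Rat1-Omomer cells at 0 min lay below Rat1-control cells at 0 min.

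Expressed as folds of 90 min over 0 min, Ptgs2 was 14.3-fold (L25925_s_at) and 6.87-fold (S67722_s_at) higher in Rat1-Omomer cells, the ranks 9 and 23 from the top of 4209 probe sets with a fold. In Rat1-control cells it was 2.95-fold and 2.32-fold higher, ranks 80 and 152 of 3985, so that neither probe set was past 3-fold. After quantile normalization of the arrays the fold of L25925_s_at in Rat1-control cells was 3.10, past the threshold, and in Rat1-Omomer cells the folds were 11.8 and 5.26. In the direct comparison at 90 min, Ptgs2 was 4.34-fold and 1.73-fold higher in Rat1-Omomer than in Rat1-control cells. The gap between both probe sets in that comparison, 1.32 on the log2 scale, compares with an SD expected of a gap between 2 probe sets of 1.02, from an SD of log2 folds within a gene of 0.72 over 427 genes. At 0 min Ptgs2 was 1.12-fold and 1.71-fold lower in Rat1-Omomer cells. On the log2 scale these ratios were -0.16, within the SD within a gene of 0.30, and -0.77, beyond it. The gap between both probe sets at 0 min, 0.61, was larger than the SD expected of such a gap, 0.42.

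Ptgs1, the steadily expressed synthase, varied by less than 3-fold over the 4 arrays. Its only probe set, U03388_s_at, gave 3767 at 90 min and 2377 at 0 min in Rat1-Omomer cells, and 2025 at 90 min and 2703 at 0 min in Rat1-control cells. The highest value, on the Rat1-Omomer 90 min array, was 1.58-fold the 0 min value of the same cells and 1.86-fold the 90 min value of Rat1-control cells, and in Rat1-control cells Ptgs1 was 1.33-fold lower at 90 min than at 0 min. None of these folds was past 3-fold. The log2 fold of Ptgs1 in Rat1-Omomer cells, 0.66, was smaller than the SD within a gene for that comparison, 0.71, and so was that between the lines at 0 min, -0.19 with an SD of 0.30. The log2 folds in Rat1-control cells after serum, -0.42 with an SD of 0.32, and between the lines at 90 min, 0.90 with an SD of 0.72, were larger than theirs.

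**Figure D2:**
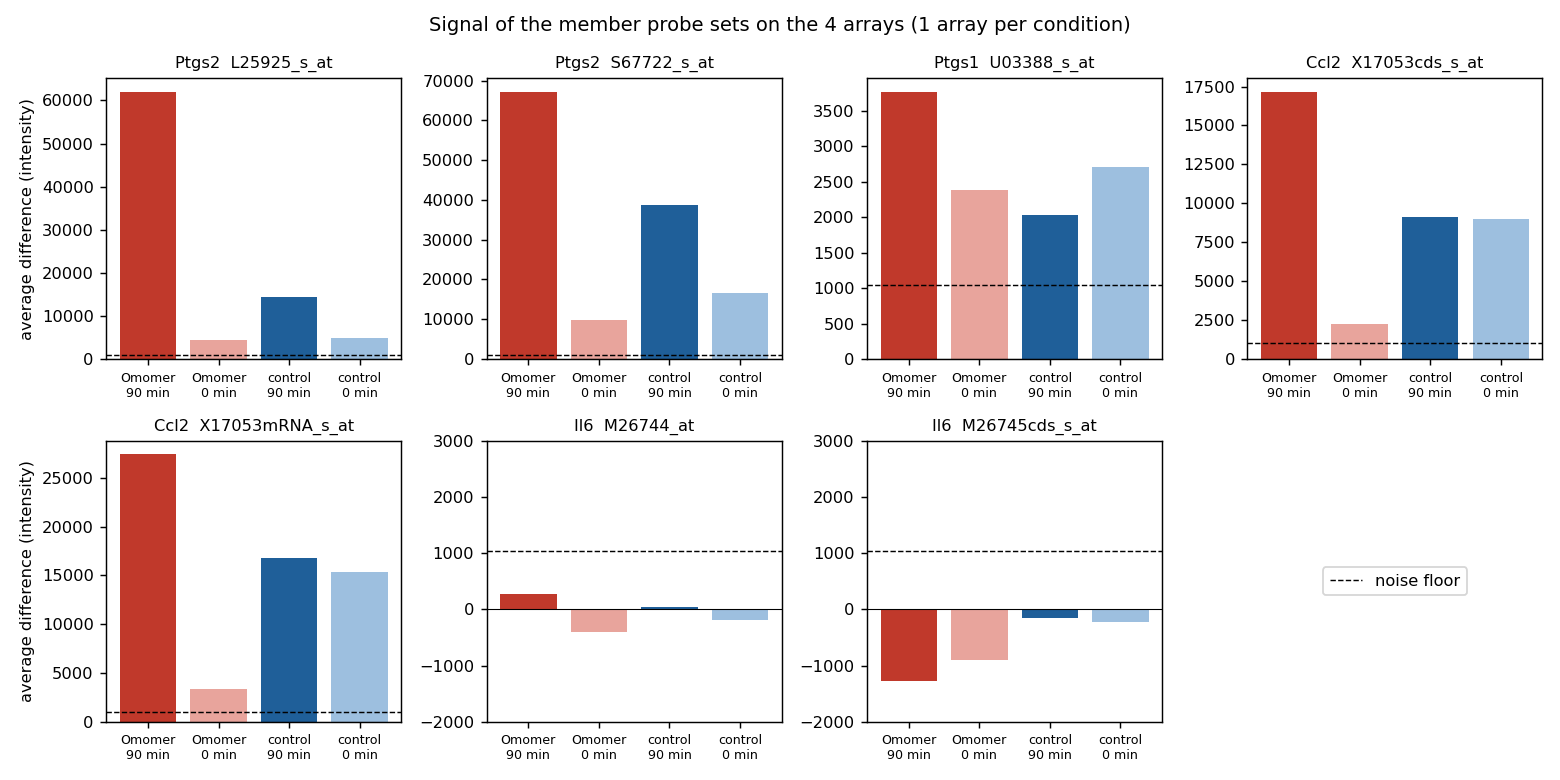
Average difference (intensity, linear scale) of the 7 member probe sets on the 4 arrays, 1 bar per array, with the noise floor of 1048 dashed. Ptgs2 and Ccl2 are highest on the Rat1-Omomer 90 min array, Ptgs1 varies between 2025 and 3767, and both Il6 probe sets stay under the floor.

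Ccl2 had a large serum response in Rat1-Omomer cells and nearly none in Rat1-control cells. Probe set X17053mRNA_s_at gave 27407 at 90 min and 3385 at 0 min in Rat1-Omomer cells, against 16820 at 90 min and 15369 at 0 min in Rat1-control cells. Probe set X17053cds_s_at gave 17162 at 90 min and 2260 at 0 min in Rat1-Omomer cells, against 9102 at 90 min and 9010 at 0 min in Rat1-control cells. Both probe sets thus show 1 low array, that of starved Rat1-Omomer cells, and 1 high array, that of the same cells after serum, with both Rat1-control arrays in between. They carry the same source accession and are not independent of each other.

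In folds, Ccl2 was 8.10-fold and 7.59-fold higher at 90 min than at 0 min in Rat1-Omomer cells, and 1.09-fold and 1.01-fold higher in Rat1-control cells. At 0 min it was 4.54-fold and 3.99-fold lower in Rat1-Omomer than in Rat1-control cells, the ranks 2 and 5 from the bottom of 3977 probe sets. At 90 min it was 1.63-fold and 1.89-fold higher in Rat1-Omomer cells, which was not past 3-fold. The difference of the serum log2 folds, Rat1-Omomer minus Rat1-control, was 2.89 and 2.91. It is the gap between the log2 ratios of Rat1-Omomer over Rat1-control cells at 90 min, 0.70 and 0.91, and at 0 min, -2.18 and -1.995, so that most of it comes from the low 0 min value. For Ptgs2 the same difference was 2.28 (L25925_s_at) and 1.57 (S67722_s_at); the ratios were 2.12 and 0.79 at 90 min and -0.16 and -0.77 at 0 min. For Ptgs1 it was 1.08.

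**Figure D3:**
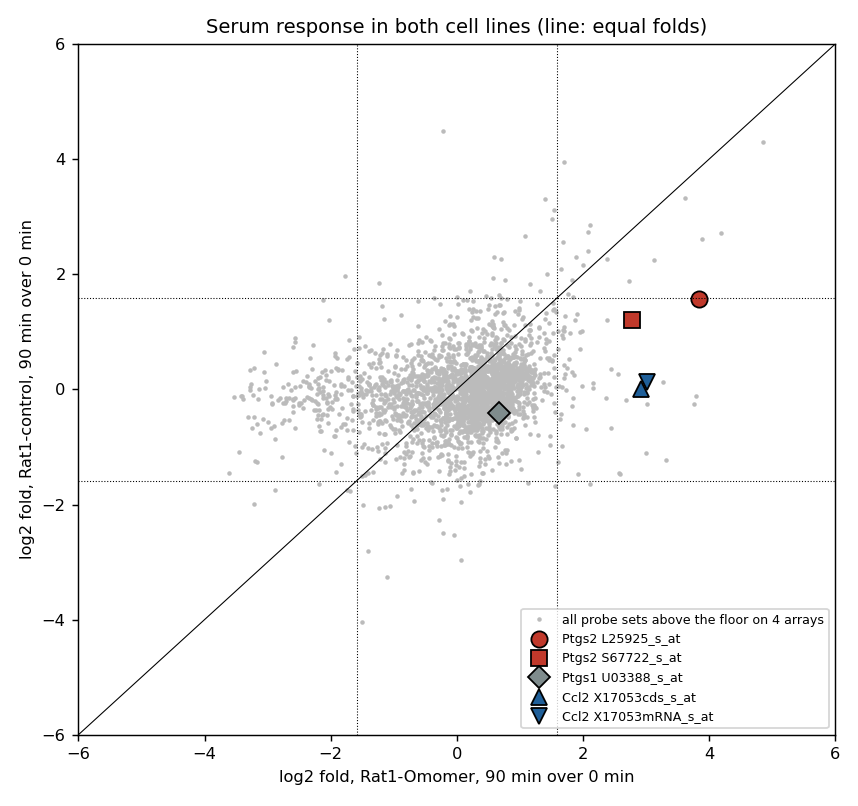
Log2 fold of 90 min over 0 min in Rat1-Omomer cells (x axis) and in Rat1-control cells (y axis) for the 2600 probe sets that passed the floor 4 times (grey), with the 5 such member probe sets marked; dotted lines are 3-fold. Both Ccl2 probe sets lie near 0 on the y axis (0.01 and 0.13) and at 2.92 and 3.02 on the x axis, and Ptgs2 lies at 3.84 and 2.78 against 1.56 and 1.21.

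Both probe sets of Il6 were under the floor throughout. M26744_at gave 280 at 90 min and -407 at 0 min in Rat1-Omomer cells, and 49 at 90 min and -196 at 0 min in Rat1-control cells. M26745cds_s_at was below 0 on all 4 arrays, with -1273 and -908 in Rat1-Omomer cells at 90 and 0 min, and -153 and -226 in Rat1-control cells at 90 and 0 min. Il6 was therefore not detectable above the noise in either cell line at these times, and no fold was computed.

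Counted over the 5 member probe sets with a fold, 4 were at least 3-fold higher at 90 min in Rat1-Omomer cells, all those of Ptgs2 and Ccl2, and 0 were lower. Over all probe sets with a fold, 2.90% reached 3-fold upward and 9.65% 3-fold downward in that comparison. In Rat1-control cells 0 of 5 were past 3-fold, where 1.93% of all were higher and 1.81% lower. At 90 min, 1 of 5 (L25925_s_at) was at least 3-fold higher in Rat1-Omomer than in Rat1-control cells, and 2.22% of all were higher and 8.57% lower. At 0 min, 2 of 5, those of Ccl2, were at least 3-fold lower, where 0.251% of all were higher and 0.503% lower. The members were selected on these very folds, so that nothing is read from their counts against these shares. The median log2 fold of the 5 was 2.92 in Rat1-Omomer and 0.13 in Rat1-control cells after serum, 0.90 between the lines at 90 min and -0.77 at 0 min. Over all probe sets with a fold it was 0.09, -0.07, 0.18 and 0.01. Nothing is read from this either, since the selection used these folds and 4 of the 5 are probe sets of Ptgs2 and Ccl2.

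Bright probe sets as a whole were higher on the Rat1-Omomer 90 min array. For 743 probe sets with a mean of at least 10000 over the 4 arrays, the median log2 fold was 0.40 over the same cells at 0 min and 0.33 over Rat1-control cells at 90 min, with 5th to 95th percentiles of -2.20 to 1.53 and -2.33 to 1.18. Ptgs2 in Rat1-Omomer cells after serum (3.84 and 2.78) and Ccl2 (3.02 and 2.92) lay above that range, whereas S67722_s_at and both Ccl2 probe sets lay inside the range of the direct comparison at 90 min. The Ccl2 probe set X17053cds_s_at, with a mean of 9383.5, is itself not among the 743. Quantile normalization, which gives all arrays the same distribution, left Ccl2 at 7.62-fold and 7.51-fold higher after serum in Rat1-Omomer cells and 5.18-fold and 4.29-fold lower at 0 min. In the direct comparison at 90 min, Ptgs2 by L25925_s_at was 4.34-fold higher before and 3.38-fold higher after this normalization. By S67722_s_at it was 1.73-fold higher before and 1.40-fold higher after. The part of the wider range of the Rat1-Omomer 90 min array in the folds of Ptgs2 at 90 min was not tested.

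**Figure D4:**
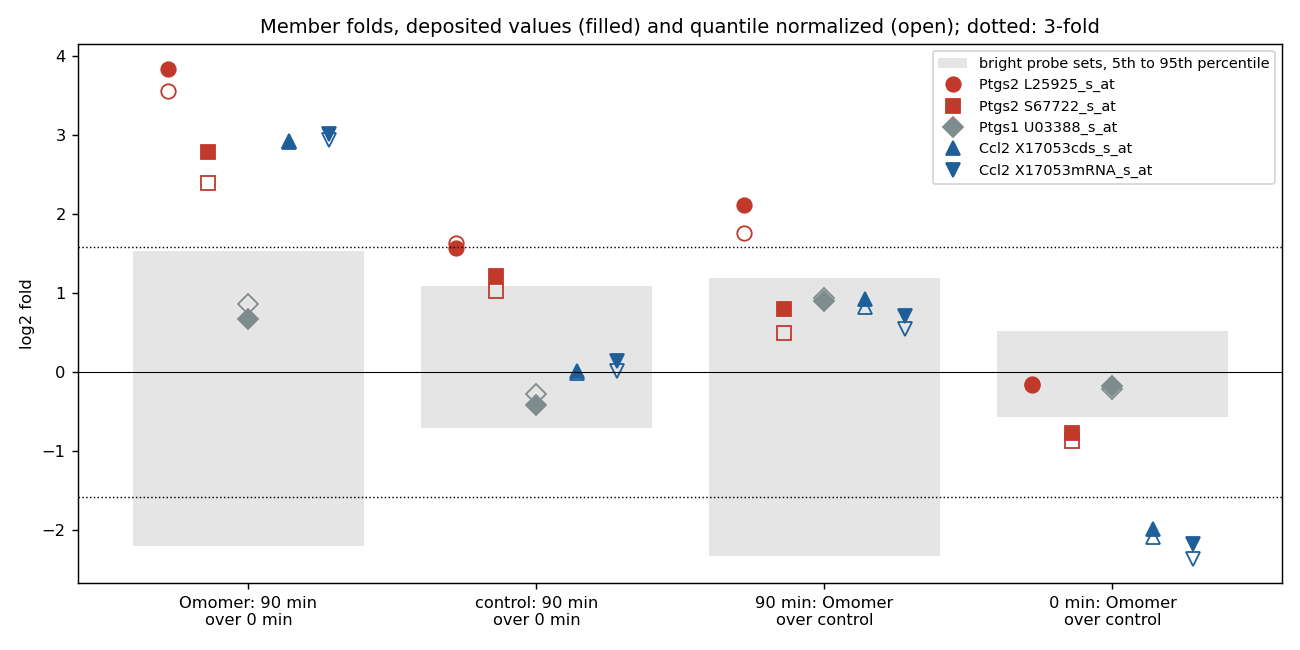
Log2 folds of the 5 member probe sets above the floor in the 4 comparisons, from deposited values (filled) and after quantile normalization (open), with 3-fold dotted and the 5th to 95th percentile of 743 bright probe sets in grey. Ptgs2 and Ccl2 lie above 3-fold in Rat1-Omomer cells after serum, and Ccl2 lies past 3-fold lower at 0 min.

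Of the other genes of prostaglandin and leukotriene metabolism, Ptgir and Lta4h had a probe set past 3-fold. Such calls in these lists, and in those of chemokines, cytokines and their receptors, were not compared with the shares over all probe sets. Of 17 probe sets for synthesis and breakdown of prostaglandins, 6 were above the floor on an array, and 0 were past 3-fold in any of the 4 comparisons. Pla2g4a, the cytosolic phospholipase that releases arachidonic acid, is 1 of those above the floor, with 5742 at 90 min and 4222 at 0 min in Rat1-Omomer cells, and 3231 at 90 min and 4452 at 0 min in Rat1-control cells. Among 15 probe sets of prostanoid receptors, 5 were above the floor on an array and 1 was past 3-fold: Ptgir, the prostacyclin receptor, with 3192 at 90 min and 154 at 0 min in Rat1-Omomer cells, at least 3.05-fold higher, and 1779 at 90 min and 1892 at 0 min in Rat1-control cells. Of 11 probe sets of lipoxygenase and leukotriene genes, 2 were above the floor, both of Lta4h, the leukotriene A hydrolase. They differ: S87522_at lay between 9869 and 14256 on all arrays, while S87522_g_at gave -3211 for Rat1-control cells at 90 min and 5628 at 0 min.

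Other chemokines and cytokines were mostly not above the noise. Of 15 probe sets of other chemokines, 7 were above the floor on an array. Cxcl6, a neutrophil-attracting chemokine, gave 4790 at 90 min and 1395 at 0 min in Rat1-Omomer cells, 3.43-fold higher, and 1953 at 90 min and 1355 at 0 min in Rat1-control cells, 1.44-fold higher. Cxcl10, an interferon-induced chemokine, gave 2733 at 90 min and 1651 at 0 min in Rat1-Omomer cells, while in Rat1-control cells it was 843 at 90 min and 3230 at 0 min, at least 3.08-fold lower. Among 32 probe sets of other cytokines, 5 were above the floor and 0 were past 3-fold in any comparison. Of 27 probe sets of cytokine and chemokine receptors, 8 were above the floor, and 1 was past 3-fold. This was Il1rl1, a receptor of the interleukin 1 family known as a serum-induced gene of mouse fibroblasts, by probe set U04319_at: 7117 at 90 min and -85 at 0 min in Rat1-Omomer cells, and 7085 at 90 min and 220 at 0 min in Rat1-control cells. Its serum response was at least 6.79-fold in Rat1-Omomer and at least 6.76-fold in Rat1-control cells, with nearly the same signal in both lines at 90 min. Its other probe set, U04317_at, was near or under the floor, with 1117 at 90 min and 314 at 0 min in Rat1-Omomer cells, and 506 at 90 min and 473 at 0 min in Rat1-control cells.

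Transcription factors and RNA decay factors that act on such genes, or are induced with them, had probe sets past 3-fold in each comparison. In Rat1-Omomer cells after serum 4 of 37 probe sets were higher and 3 lower, in Rat1-control cells 1 of 37 was higher and 7 lower, at 90 min 5 of 34 were higher and 3 lower in Rat1-Omomer than in Rat1-control cells, and at 0 min 0 of 36 were higher and 6 lower. Over all probe sets the shares in these comparisons were 2.90% and 9.65%, 1.93% and 1.81%, 2.22% and 8.57%, and 0.251% and 0.503%. The 4 and the 5 higher probe sets belonged to the same 2 genes, Dusp1 and Zfp36l1. The 7 lower ones in Rat1-control cells belonged to 3 genes (Fos, Jun and Zfp36l1), and the 6 lower ones at 0 min to 3 genes (Dusp1, Fos and Jun). Those lower in Rat1-Omomer cells after serum were 1 probe set each of Jun, Junb and Zfp36, and at 90 min 1 each of Fosl1, Junb and Zfp36. These counts thus repeat genes. The probe sets of Junb disagree in Rat1-Omomer cells. By rc_AA891041_at Junb gave 2583 at 90 min and 11176 at 0 min, and at 90 min was 5.19-fold lower than in Rat1-control cells. By X54686cds_at it gave 17216 at 90 min and 9002 at 0 min, and at 90 min was 1.69-fold higher than in Rat1-control cells. Dusp1, a phosphatase of MAP kinases, had by U02553cds_s_at 43122 at 90 min and 4340 at 0 min in Rat1-Omomer cells, and 6787 at 90 min and 15893 at 0 min in Rat1-control cells. Like Ccl2, it was lowest in starved Rat1-Omomer cells and highest in the same cells after serum, but in Rat1-control cells it was 2.34-fold lower at 90 min. Fos, a subunit of AP-1, had by X06769cds_g_at 12510 at 90 min and 5715 at 0 min in Rat1-Omomer cells, and 5588 at 90 min and 17317 at 0 min in Rat1-control cells. The other 2 Fos probe sets were nearly level in Rat1-Omomer cells, with 3366 at 90 min and 3198 at 0 min by X03347cds_g_at and 1263 at 90 min and 1109 at 0 min by X06769cds_at, against 2.19-fold higher by X06769cds_g_at. In Rat1-control cells all 3 were past 3-fold lower at 90 min. Fos and Dusp1, both immediate early genes, thus had high signal on the Rat1-control 0 min array. The 0 min ratio and the serum fold of Ccl2 in Rat1-control cells were taken against that array. The part of Fos and Dusp1 in these ratios was not tested. Of the same list, both Junb probe sets were highest on that array, with 27669 (rc_AA891041_at) and 18223 (X54686cds_at). So was Jun by rc_AI175959_at (21117), X17163cds_s_at (5155) and rc_AA945867_at (4958), but not by rc_AA944014_at. Egr1 did not share this by its brightest probe set, with 66526 on that array and 63281 in Rat1-Omomer cells at 0 min. Its other values in the same order were 31669 and 21426 (M18416_at), 10964 and 8560 (rc_AI176662_s_at), and 3276 and 4122 (U75398_s_at). No Egr1 probe set was past 3-fold in any comparison. Fosl1, another AP-1 subunit, was at least 11.4-fold higher after serum in Rat1-control cells, with 11973 at 90 min and -178 at 0 min, against 1423 at 90 min and -529 at 0 min in Rat1-Omomer cells.

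Zfp36 and Zfp36l1 encode proteins that bind AU-rich elements and speed the decay of mRNAs, those of cytokines among them. Zfp36l1 had by rc_AI136891_at 50240 at 90 min and 16594 at 0 min in Rat1-Omomer cells, and 6046 at 90 min and 14508 at 0 min in Rat1-control cells. At 90 min it was thus 8.31-fold higher in Rat1-Omomer than in Rat1-control cells, and 6.31-fold higher by rc_AI112516_at. Zfp36 was given by 2 probe sets that disagree: X63369cds_at was 2.64-fold higher and rc_AA800613_at 4.93-fold lower in Rat1-Omomer than in Rat1-control cells at 90 min.

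**Figure D5:**
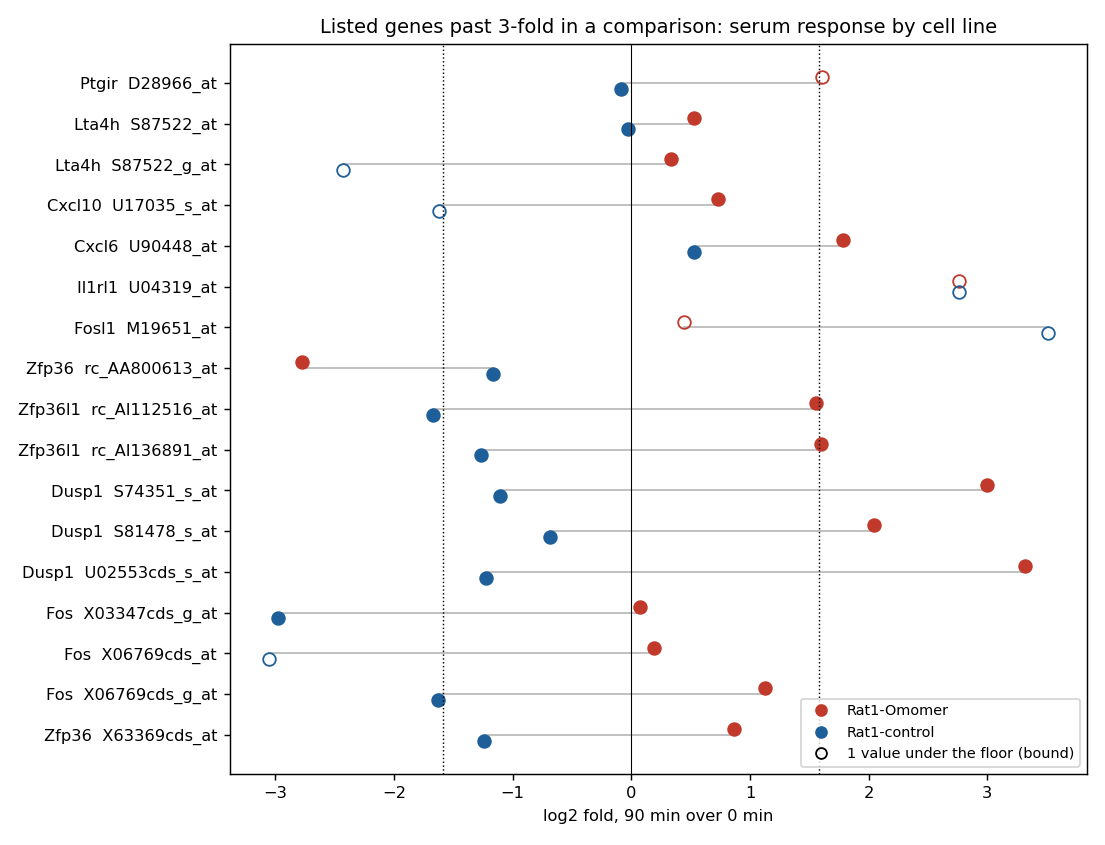
Log2 folds of 90 min over 0 min in Rat1-Omomer (red) and Rat1-control cells (blue) for probe sets with a fold in both lines. They belong to listed genes past 3-fold in a comparison, at most 5 a list by the largest absolute log2 fold, which leaves out Jun and Junb. Open circles are bounds against the floor and dotted lines are 3-fold. Dusp1 lies at 2.04 to 3.31 in Rat1-Omomer and at -1.23 to -0.69 in Rat1-control cells, whereas Il1rl1 lies at 2.76 in both.

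Markers of other cells were looked at beside the chemokine values. Of 14 probe sets of macrophage and leukocyte markers, 3 or 4 were above the floor on an array, and their summed signal, with values below 0 counted as 0, was 14273 at 90 min and 9721 at 0 min in Rat1-Omomer cells and 9142 at 90 min and 9256 at 0 min in Rat1-control cells. Most of it was Cd14, which fibroblasts can express and which gave by its brighter probe set 6924 at 90 min and 4075 at 0 min in Rat1-Omomer cells, and 4276 at 90 min and 3508 at 0 min in Rat1-control cells. Cd74, the invariant chain of MHC class II, gave by X14254cds_at 1430 at 90 min and 1566 at 0 min in Rat1-Omomer cells, and 815 at 90 min and 1659 at 0 min in Rat1-control cells, while its other 3 probe sets were below 0 on all 4 arrays. Ptprc, the pan-leukocyte marker, lay at the floor by M25823_s_at, with 1040 at 90 min and 1041 at 0 min in Rat1-Omomer cells, and 1097 at 90 min and 1070 at 0 min in Rat1-control cells, and its other 2 probe sets were below 0 throughout. Csf1r, Itgam and Lyz2, defining genes of macrophages, were under the floor on all 4 arrays. The part of these markers in the values of Ccl2 was not tested.

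The probe sets most like Ptgs2 and Ccl2 were found by the root mean square difference of log2 values, each centred on its own mean over the 4 arrays, among 1570 probe sets with 1 symbol and a mean signal of 3 floors or more. Nearest to Ptgs2 (S67722_s_at) were Vmp1 (0.31), Fhl2 (0.33), Acsl4 (0.36), Ugdh (0.37) and Msx2 (0.39), while the other Ptgs2 probe set came at rank 57 with 0.62. Vmp1, a membrane protein of autophagy, gave 35099 at 90 min and 8844 at 0 min in Rat1-Omomer cells, and 29146 at 90 min and 14422 at 0 min in Rat1-control cells. Nearest to Ccl2 (X17053mRNA_s_at) was its own second probe set (0.11), then Gpx1 (0.35), Nat2 (0.38), Rps29 (0.39) and Fgfr1 (0.52). Gpx1, a glutathione peroxidase, gave 10161 at 90 min and 2285 at 0 min in Rat1-Omomer cells, and 6517 at 90 min and 6027 at 0 min in Rat1-control cells. With 4 values per probe set, likeness rests on few points, which share the same 4 RNA samples.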

How the data were processed

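Total RNA of Rat1-Omomer and Rat1-control cells was hybridized to RG-U34A arrays, 1 per condition. The authors used the Affymetrix software MAS 4 at its defaults; the deposited intensity of a probe set is the average difference, linear, with negative values kept and arrays scaled to a like mean. Samples were grouped by title. Gene symbols are from the platform annotation: of 8740 probe sets other than the 59 AFFX controls, 7006 had 1 symbol. The SD of the noise, estimated as 524, was 1.4826 times the median size of the values below 0 on the 4 arrays; values under 2 SD, 1048, were set to this floor before ratios were taken. A ratio against a floored value is a bound, and none was taken where both values were under it. No test could be run, and the only error given is the SD of log2 folds between probe sets of a gene. The number of arrays limits the precision.

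Members and gene lists were chosen with earlier results of these data known. Named beside the members were the list genes past 3-fold in a comparison, at most 5 a list, taken by the largest absolute log2 fold, and the 5 nearest probe sets by pattern. Pla2g4a, Egr1, the marker genes and the values of Jun and Junb were added after their values were seen. The calculation of fold calls was tried on simulated data, as a check of the calculation only. That check does not show how reliable the 3-fold calls are, since the spread between cultures could not be measured without replicates. Alternatives were other floors, median scaling, quantile normalization, the difference form of the MAS 4 fold, dropping probe sets under the floor on 1 of both arrays, 1 probe set per gene, and leaving out EST series. Python 3.11.15 with numpy 2.4.6, pandas 2.3.3 and matplotlib 3.10.9 was used.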

Additional observations from a re-analysis of the deposited data

Results flagged for a closer look

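Several probe sets were higher in 1 condition and lower in the other under the same contrast, each by more than the SD of log2 folds within a gene. With 1 array per condition none of these differences was tested. Ratios of Rat1-Omomer over Rat1-control were positive at 90 min and negative at 0 min for Ccl2 (X17053cds_s_at, 0.91 at 90 min and -1.995 at 0 min on the log2 scale, a difference of 2.91), Ptgs2 (S67722_s_at, 0.79 and -0.77, a difference of 1.57) and Ptgir (a difference of 1.70). The same held for 1 probe set of Lta4h (2.76) and for Fos by X03347cds_g_at (3.05). For Cxcl10 (2.35), Zfp36 by X63369cds_at (2.10), Fos by X06769cds_g_at (2.76) and Zfp36l1 by rc_AI112516_at (3.23), the serum fold was positive in Rat1-Omomer and negative in Rat1-control cells as well, so that the same difference appears in both contrasts. Dusp1 did so by all 3 probe sets, with differences of 4.10 (S74351_s_at), 2.73 (S81478_s_at) and 4.54 (U02553cds_s_at). For Zfp36l1 by rc_AI136891_at only the serum folds had opposite signs, 1.60 in Rat1-Omomer and -1.26 in Rat1-control cells, a difference of 2.86. The other probe sets of Ptgs2 and Ccl2 did not meet the rule. Ptgs2 by L25925_s_at had a ratio of -0.16 at 0 min, within the SD of 0.30. Ccl2 by X17053mRNA_s_at had 0.70 at 90 min, within the SD of 0.72.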

How the results depend on the processing

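Counts of member probe sets past 3-fold were recomputed under 9 alternatives. With quantile normalization, 1 member probe set (Ptgs2, L25925_s_at) was at least 3-fold higher after serum in Rat1-control cells, against 0 otherwise. With 1 probe set per gene, which leaves 3 genes by construction, 2 were at least 3-fold higher after serum in Rat1-Omomer cells, 0 were higher at 90 min and 1 was lower at 0 min in the comparison of Rat1-Omomer with Rat1-control. The other 68 of 72 counts did not change by more than 1.5-fold. Most alternatives could not change them, because the 5 member probe sets with a fold lay above the floor on all 4 arrays. Of the member probe sets, 0 were in the EST series. Leaving out EST series, dropping probe sets under the floor and the difference form thus returned the same folds, which is no sign of robustness. Over 5 floors and scalings, the difference of the serum log2 folds lay between 1.93 and 2.28 for Ptgs2 by L25925_s_at, 1.37 and 1.57 by S67722_s_at, 2.87 and 2.92 for both Ccl2 probe sets, and 1.03 and 1.15 for Ptgs1. Of 100 single folds of members none moved by more than the SD within a gene. The other floors left these folds and differences unchanged by construction, apart from those of Ptgs1 under a floor of 4 SD. Only median scaling and quantile normalization could therefore move the rest. The sign of the Ccl2 serum fold in Rat1-control cells by X17053cds_s_at, 0.01 on the log2 scale, was negative (-0.02) after quantile normalization. No paired analysis was possible because each condition has 1 array. Folds over values near the floor, such as those of Ptgir and Cxcl10, are the ones that the noise limits most, and without replicates a single array decides every fold.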
